A study of Mus musculus with 12 samples.

Results

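The motile cilium genes described here were 52 of the 20774 genes in the deposited lung tables. They were chosen by symbol: every dynein axonemal heavy chain gene whose symbol is Dnah and a number, every Cfap (cilia and flagella associated protein), Rsph (radial spoke) and Tekt (tektin) gene, and Foxj1, Mcidas, Ccdc39, Ccdc40 and Tppp3. The set held 12 dynein heavy chains, 23 Cfap genes, 7 radial spoke genes, 5 tektins and those 5 others. The symbol rule uses no measured value, but it was set with earlier results of these data known. A motile cilium is built on an axoneme of doublet microtubules around a central pair, and it bends when dynein arms on the doublets walk along the neighbouring doublet. Radial spokes and the central apparatus control the dyneins, tektins and other proteins line the inside of the doublets, and FOXJ1 and multicilin (Mcidas) switch on the genes for all of these in multiciliated cells. In lung, those cells line the conducting airways and move mucus upwards.

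RNA came from homogenized lung of wild-type C57BL/6J mice, whose age is labelled 8 weeks. The groups of 3 libraries each were PQ 4w, PQ 1w, control 4w and control 1w, where PQ mice had received 1 intratracheal dose of paraquat, a herbicide that damages lung, in saline, and control mice saline alone; the labels 1w and 4w were read as 1 and 4 weeks. The label gives the same age for both times, so how age and time after dosing relate is not given. Nothing says that the 3 libraries of a group came from separate mice, so the p-values cover only the spread among these libraries, which may be technical.

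Library totals were 17220978 to 18559809 expected counts, the read counts that RSEM assigns to each gene. Levels are CPM, the expected count divided by the library total and scaled to a total of 1e6, and fold changes are given as log2 effects of an edgeR quasi-likelihood fit with Benjamini-Hochberg adjusted p-values over 15921 tested genes, n = 3 libraries in each group throughout. A value after ± is a standard error beside a log2 effect and an SD beside a mean CPM, and a gene rose or fell where the adjusted p was under 0.05. Of the 52 genes, 51 passed the filter on low counts. Rsph6a, a radial spoke head gene used in sperm, did not: it had 1 expected count in control 4w replicate 1, or 0.0563 CPM, and 0 in the other libraries, where 3 counts correspond to 0.162 to 0.174 CPM. Counts of 3 set this floor for counting error only.

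Replicate 3 of PQ 4w stood apart from replicates 1 and 2. It was the lowest of the PQ 4w libraries for 47 of the 51 tested genes (92.2%), and for 35.0% of all tested genes. Replicate 1 of PQ 4w was the highest of all 12 libraries for 42 of the 51, and for 2970 of all 15921 tested genes. Among the control 1w libraries replicate 3 was the lowest for 44 (86.3%, against 34.6% of all tested genes). Most of the genes therefore moved together within groups too. No chance statement is made about these shares, because genes of 1 library are not replicates.

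Promoters were set beside the measurements because most of these genes moved together, and because RFX factors, which act with FOXJ1 in ciliated cells, are known to bind the X-box, here searched as GTTNCC, any 2 bases and GGNAAC, and its half-site GTTGCC. RefSeq windows of GRCm38.p6, 250 bases before to 50 after an annotated start, were given for 44 of the 52 genes (51 windows in all, since some genes have several starts). The half-site was in a window of 16 of the 44 genes (36.4%), against 14.9% of 12520 tested genes and 14.1% of 27025 genes with a window. The whole X-box in this spelling was in no window of the 44 genes and in 0.671% of the tested genes. Other spellings of it were not searched. A forkhead core, TGTTTAC or TGTTTGT, was in 5 of the 44 (11.4%) and in 8.73% of the tested genes. All searches covered both strands, an X-box as searched can hold the half-site, and a match is a run of letters and not a binding site. Of the 35 genes with a window that were higher in PQ 4w than in PQ 1w, 15 held the half-site (42.9%), against 1 of the 8 tested genes that did not pass in that comparison (12.5%, Mcidas). Dnah7a, Dnah7b and Dnah7c are close copies with similar windows, and each counts as 1 gene among the 16 and the 15. No test compared these shares.

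The 6 windows printed here were chosen after the values were seen, to show 4 genes with the half-site and 2 without it. Cfap161 (chr7:83794790-83795089), Cfap46 (chr7:139683766-139684065), the later listed start of Tekt1 (chr11:72361833-72362132) and 1 of 3 starts of Tekt2 (chr4:126325639-126325938) held it. Another listed start of Tekt2, not printed, has an overlapping window that holds the same matches. All 4 genes were higher in PQ 4w than in PQ 1w. Dnah6 (chr6:73221582-73221881) was also higher there, and Tekt5 (chr16:10395406-10395705) did not pass; neither held those letters. All 6 lie on the minus strand and are printed 5′ to 3′ in the direction of the gene, with capitals marking GTTGCC or its reverse complement.
Cfap161: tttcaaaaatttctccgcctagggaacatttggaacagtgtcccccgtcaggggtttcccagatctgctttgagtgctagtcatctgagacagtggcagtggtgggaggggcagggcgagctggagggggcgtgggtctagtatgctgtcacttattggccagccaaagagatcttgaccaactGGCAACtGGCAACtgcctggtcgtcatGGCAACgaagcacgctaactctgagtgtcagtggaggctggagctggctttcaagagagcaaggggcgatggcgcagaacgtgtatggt
Cfap46: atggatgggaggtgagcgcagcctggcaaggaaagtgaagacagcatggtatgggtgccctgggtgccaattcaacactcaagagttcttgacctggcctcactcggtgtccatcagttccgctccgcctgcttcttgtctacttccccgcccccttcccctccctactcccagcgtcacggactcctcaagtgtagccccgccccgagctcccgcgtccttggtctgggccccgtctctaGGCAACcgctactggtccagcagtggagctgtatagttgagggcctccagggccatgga
Tekt1: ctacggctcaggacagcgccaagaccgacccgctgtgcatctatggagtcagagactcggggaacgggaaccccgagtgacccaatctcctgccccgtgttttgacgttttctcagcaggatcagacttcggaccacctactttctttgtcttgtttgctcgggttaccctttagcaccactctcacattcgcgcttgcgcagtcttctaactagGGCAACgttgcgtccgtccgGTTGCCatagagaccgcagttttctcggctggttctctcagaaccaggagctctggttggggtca
Tekt2: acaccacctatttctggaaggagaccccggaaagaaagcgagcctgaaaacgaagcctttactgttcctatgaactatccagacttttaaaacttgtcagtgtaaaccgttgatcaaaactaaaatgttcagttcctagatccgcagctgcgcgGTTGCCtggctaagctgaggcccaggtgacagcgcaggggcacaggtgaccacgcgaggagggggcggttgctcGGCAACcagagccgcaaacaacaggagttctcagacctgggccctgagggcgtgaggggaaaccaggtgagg
Dnah6: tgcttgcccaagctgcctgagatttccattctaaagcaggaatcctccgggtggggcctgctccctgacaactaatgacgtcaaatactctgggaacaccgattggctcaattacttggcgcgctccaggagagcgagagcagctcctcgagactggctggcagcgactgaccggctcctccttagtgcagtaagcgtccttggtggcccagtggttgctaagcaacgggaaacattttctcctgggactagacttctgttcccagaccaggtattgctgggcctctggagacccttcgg
Tekt5: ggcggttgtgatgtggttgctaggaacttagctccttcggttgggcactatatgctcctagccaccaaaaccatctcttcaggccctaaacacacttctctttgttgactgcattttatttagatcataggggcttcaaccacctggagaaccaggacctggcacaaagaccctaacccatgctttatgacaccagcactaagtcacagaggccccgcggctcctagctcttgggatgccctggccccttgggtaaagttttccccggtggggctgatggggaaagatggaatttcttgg
The first base of the match or matches lay 66, 59 and 39 bases before the start in Cfap161, 9 before it in Cfap46, 35 and 15 before it in Tekt1, and 96 and 22 before it in this window of Tekt2.

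Summed over the 52 genes, the level was 2829, 2323 and 1317 CPM in the PQ 4w libraries, 617, 793 and 672 CPM in PQ 1w, 1730, 1801 and 2000 CPM in control 4w, and 1248, 1197 and 938 CPM in control 1w. The PQ 1w libraries were below all others, the control 4w libraries were above all control 1w libraries, and the PQ 4w libraries spread across the control 4w range on both sides. Tppp3 alone made 13.2 to 34.9% of the sum. Without it the sum was 2457, 1927 and 1060 CPM in PQ 4w, 492, 679 and 555 in PQ 1w, 1360, 1460 and 1594 in control 4w, and 910, 780 and 649 in control 1w. In bulk lung, fewer ciliated cells and less of these RNAs in each cell cannot be told apart. By group means, PQ 4w was the highest of the 4 groups for 46 of 51 genes (90.2%, against 33.6% of all tested genes), and PQ 1w the lowest for 43 (84.3%, against 38.8%).

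**Figure D1:**
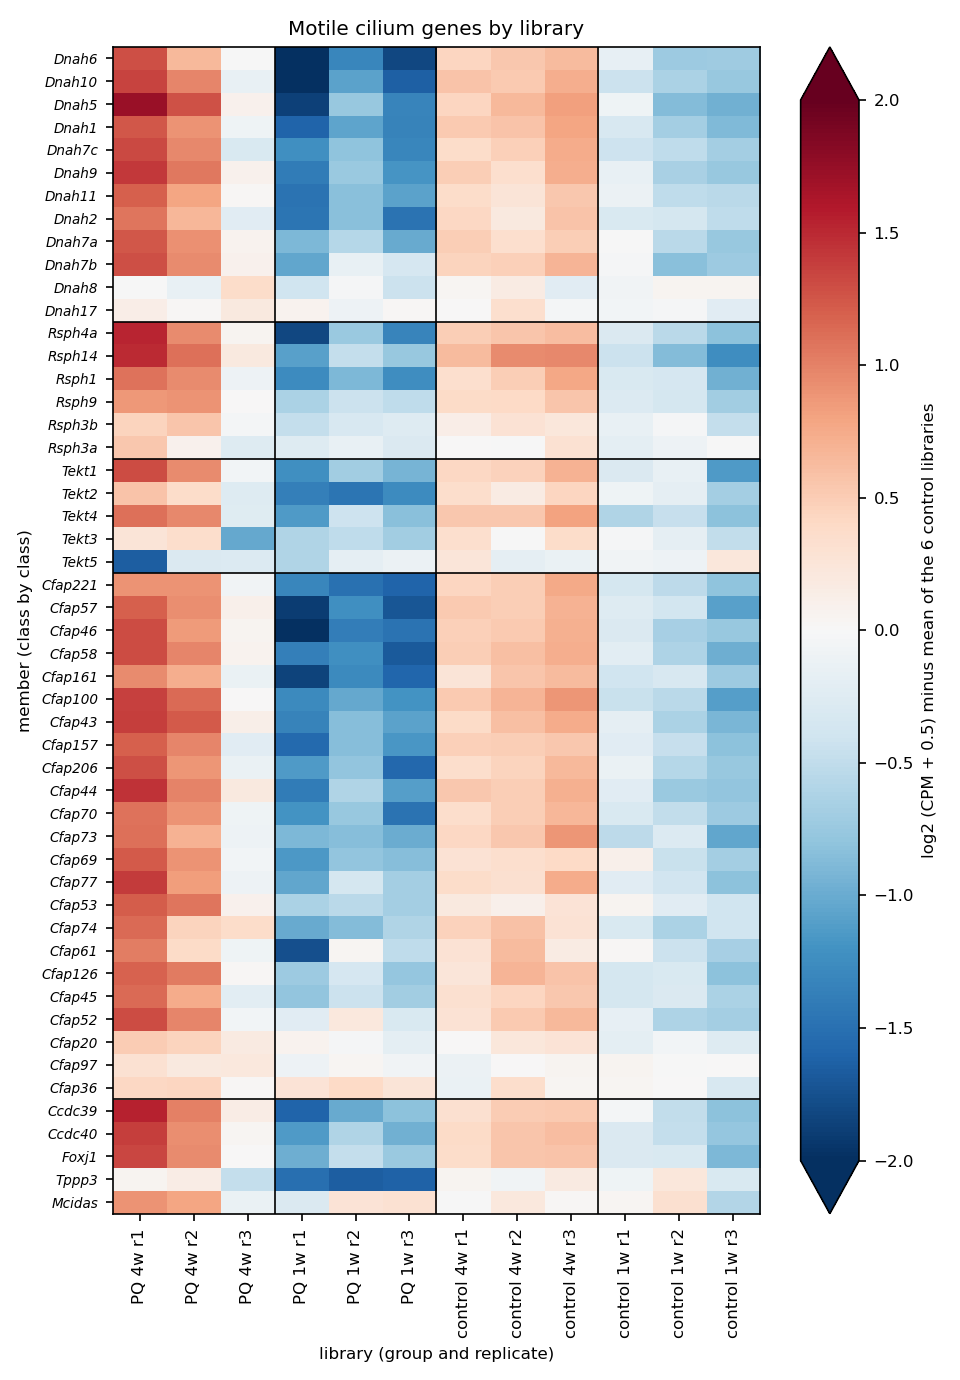
Level of the 51 tested motile cilium genes (rows, by class) in each of the 12 libraries (columns, by group), as log2 (CPM + 0.5) minus the mean of the 6 control libraries; red is higher and blue lower. The PQ 1w columns are blue for most rows, the first 2 PQ 4w columns are red, and PQ 4w replicate 3 lies near the control mean, with a mean over these genes of -0.04 against 1.01 and 0.75 in replicates 1 and 2.

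To compare levels between genes the authors' FPKM, which scale for transcript length, were averaged over the 12 libraries. Tppp3, a tubulin-binding protein abundant in ciliated cells, had the highest level at 289 FPKM. Foxj1 followed at 53.9, then Rsph1 at 30.2, Cfap20 at 26.4 and Cfap126 at 25.4. Dynein heavy chains were far lower per length, with Dnah6 the highest at 6.39 FPKM and Dnah17 the lowest at 0.343. Mcidas, which acts early in ciliated cell differentiation, had 0.597 FPKM and 10.9 to 44.6 expected counts a library.

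In PQ 1w lungs 11 of the 51 genes fell and 1 rose against control 1w. Over all tested genes 22.9% fell and 25.9% rose in this comparison, so 11 of 51 is near the background in this fit. The share was 21.6% in this fit, and it was above the background in some other fits. DESeq2's Wald test called 35.3% of the motile cilium genes lower, against 23.5% of all tested genes. With only the groups compared, edgeR called 52.0% lower, against 25.3%. With no filter it called 12 of the motile cilium genes lower, against 16.5% of all genes tested in that fit. The values leaned downwards beyond those that passed: the log2 effect was below 0 for 44 of 51, with a median of -0.50, against 0.00 over all tested genes. The 3 PQ 1w values lay below the 3 control 1w values for 21 genes and above them for 1, where 27.1% and 31.5% of all tested genes did. The genes that fell were Tppp3, Tekt2, the dynein heavy chains Dnah2, Dnah6, Dnah10 and Dnah11, and Cfap46, Cfap57, Cfap58, Cfap161 and Cfap221. Without PQ 1w replicate 3, or without control 1w replicate 1, 7 genes fell (13.7%, against 19.1% and 18.7% of all tested genes). Without PQ 1w replicate 2, or without control 1w replicate 3, 14 fell (27.5%, against 19.6% and 18.9%). Without PQ 1w replicate 1 and without control 1w replicate 2, 8 and 10 fell (15.7% and 19.6%, against 19.2% and 20.6%).

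Tppp3 (GRCm38 chr8:105467492-105471422) had the largest effect at 1w. It had 126, 114 and 116 CPM in PQ 1w, against 338, 417 and 289 CPM in control 1w. All PQ 1w libraries were below all control libraries, and Tppp3 fell by 1.56 ± 0.17 on the log2 scale (adjusted p = 1.24e-05), to 0.338 of the control level. Tppp3 is also expressed outside ciliated cells, and its share of the summed level differed by group: 14.3 to 20.4% in PQ 1w against 27.1 to 34.9% in control 1w.

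Dnah6 (chr6:73017603-73222227), an inner arm dynein heavy chain, had 15.3, 32.1 and 22.2 CPM in PQ 1w, against 71.2, 48.2 and 48.4 CPM in control 1w, with no overlap, and fell by 1.28 ± 0.31 on the log2 scale (adjusted p = 0.00441). Tekt2 (chr4:126322121-126325688), a tektin of the doublet wall, had 4.63, 4.32 and 5.01 CPM in PQ 1w, against 12, 11.2 and 7.73 CPM in control 1w, and fell by 1.16 ± 0.22 (adjusted p = 0.000957). Cfap161, a protein found inside doublet microtubules, had 3.07, 4.86 and 3.81 CPM in PQ 1w, against 9.24, 9.80 and 7.29 CPM in control 1w, and fell by 1.17 ± 0.27 (adjusted p = 0.00322). In each of these 3 genes the PQ 1w libraries were all below the control libraries. Cfap46 and Cfap221, known in the green alga Chlamydomonas as parts of a projection of the central apparatus, fell by 1.10 ± 0.28 (adjusted p = 0.00609) and by 1.2 ± 0.31 (adjusted p = 0.00711), also with no overlap.

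Foxj1 and Mcidas, the regulators in this set, were not among the genes that fell. Foxj1 (chr11:116330704-116335499) had 62.7, 88.4 and 73.4 CPM in PQ 1w and 101, 99.5 and 65.7 CPM in control 1w, which overlap, with a log2 effect of -0.26 ± 0.27 (adjusted p = 0.446). Mcidas had 0.853, 1.49 and 1.54 CPM in PQ 1w and 1.19, 1.57 and 0.595 CPM in control 1w, with a log2 effect of 0.21 ± 0.40 (adjusted p = 0.686). A p that misses the threshold does not show equal levels, and at about 1 CPM Mcidas has little precision. Whether the effect on Foxj1 differs from that on its neighbours in the list was not tested. Among the 6 tested radial spoke genes none passed at 1w by edgeR on all 12 libraries or by limma, and 1 had an unadjusted p under 0.05. DESeq2 called Rsph1 lower, and edgeR with only the groups compared called Rsph1 and Rsph4a lower. Rsph1, a spoke head protein, had 13.3, 17.1 and 13.4 CPM in PQ 1w, against 26.1, 25.4 and 16.4 CPM in control 1w (log2 effect -0.64 ± 0.28, adjusted p = 0.0763), and control replicate 3 lay inside the PQ range. Without that library Rsph1 passed, at -0.82 (adjusted p = 0.0375), and without PQ 1w replicate 2 Rsph4a passed.

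Cfap36 (chr11:29218918-29247317) was the gene that rose at 1w. Its protein binds the small GTPase ARL3. It had 31.1, 33.9 and 30.7 CPM in PQ 1w, against 26.3, 25.7 and 20.5 CPM in control 1w, a log2 effect of 0.39 ± 0.14 (adjusted p = 0.0353). The groups did not overlap. The adjusted p was 0.0661 without PQ 1w replicate 1, 0.103 without replicate 2, 0.0539 without replicate 3 and 0.117 without control 1w replicate 3. The span of Cfap36 overlaps that of Ppp4r3b and the strand setting of the counting is not given. Reads from any stretch the pair shares therefore cannot be told apart, and whether exons overlap was not examined.

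In PQ 4w lungs none of the 51 genes passed against control 4w by edgeR, while 5.75% of all tested genes rose and 6.39% fell. Cfap53, Cfap97 and Tekt5 had an unadjusted p under 0.05, DESeq2 and limma called none, and scaling by the library total alone called Cfap97. The log2 effect was above 0 for 44 of 51, with a median of 0.17. The 3 and 3 values did not overlap for 1 gene above (Cfap97) and 1 below (Tekt5), against 20.9% and 10.4% of all tested genes. Dnah6 had 195, 126 and 79.3 CPM in PQ 4w and 108, 116 and 124 CPM in control 4w, and so spread on both sides of its controls, as the summed level did (log2 effect 0.13 ± 0.29, adjusted p = 0.815). Foxj1 had 311, 239 and 124 CPM in PQ 4w and 160, 182 and 184 CPM in control 4w (log2 effect 0.29 ± 0.26, adjusted p = 0.517).

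This count rests on PQ 4w replicate 3. Without it 11 genes rose: Ccdc39, Ccdc40, Cfap43, Cfap45, Cfap52, Cfap53, Cfap69, Cfap126, Dnah7c, Dnah9 and Foxj1. In that fit 6.59% of all tested genes rose, and the median log2 effect of the motile cilium genes was 0.46. Leaving out PQ 4w replicate 1 gave no calls and a median of -0.06, so the sign of the median also turned on 1 library. Replicate 3 also differed in club cell transcripts: Scgb1a1, the secretoglobin of club cells, was 3.29, 4.19 and 2.08% of the counts in PQ 4w replicates 1, 2 and 3, and 4.00 to 4.73% in control 4w. The part of airway content in these differences was not tested.

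The largest median effect of the 5 comparisons was that of PQ 4w against PQ 1w. In PQ 4w 43 of 51 genes were higher than in PQ 1w, while 54.5% of all tested genes passed, 26.7% higher and 27.8% lower. No motile cilium gene was lower by edgeR, DESeq2 or limma, nor at an unadjusted p under 0.05, and the log2 effect was above 0 for 49 of the 51, with a median of 1.74 (a fold of 3.35). For 42 genes all PQ 4w libraries were above all PQ 1w libraries, against 34.0% of all tested genes. Leaving out each library in turn gave 40 to 47 genes. The 47 were called without PQ 4w replicate 3 (25.2% of all tested genes were higher in that fit), and they added Cfap61, Mcidas, Rsph3a and Tekt3. The classes were 21 of 23 Cfap genes, 10 of 12 dynein heavy chains, 5 of 6 tested radial spoke genes, 3 of 5 tektins and 4 of the other 5 genes. PQ 4w and PQ 1w differ in time after dosing, and their libraries were compared directly, with no control in the contrast.

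Among the dynein heavy chains, Dnah6 had 195, 126 and 79.3 CPM in PQ 4w, against 15.3, 32.1 and 22.2 CPM in PQ 1w, a 5.47-fold higher level (log2 effect 2.45 ± 0.31, adjusted p = 4.66e-05). Even the lowest PQ 4w library was above the highest PQ 1w library. The outer arm heavy chains Dnah5, Dnah9 and Dnah11 had log2 effects of 2.38, 1.99 and 1.83, and the inner arm heavy chains Dnah1, Dnah2 and Dnah10 of 2.10, 1.81 and 2.38. The close copies Dnah7a, Dnah7b and Dnah7c had 1.74, 1.31 and 1.99, but how their shared reads were divided is uncertain. The 2 heavy chains that did not pass were Dnah8 and Dnah17, which serve the outer arms of sperm flagella. Dnah17 had 5.55, 5.13 and 5.86 CPM in PQ 4w and 5.30, 4.66 and 5.15 CPM in PQ 1w, with all 12 libraries between 4.24 and 6.48 CPM. Its span overlaps that of Pgs1, so reads from any stretch the pair shares cannot be told apart.

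Among the Cfap genes, the 3 largest effects were those of Cfap221, at 2.47 ± 0.30 (adjusted p = 2.96e-05), Cfap57, at 2.45 ± 0.30 (adjusted p = 3.94e-05), and Cfap46, at 2.43 ± 0.28 (adjusted p = 2.01e-05). The span of Cfap57 overlaps that of Ebna1bp2. Cfap46 had 63.8, 46.5 and 26.5 CPM in PQ 4w, against 5.91, 9.45 and 8.80 CPM in PQ 1w. Cfap161 had 24.3, 20.9 and 11.3 CPM in PQ 4w, against 3.07, 4.86 and 3.81 CPM in PQ 1w (log2 effect 2.20 ± 0.26, adjusted p = 3.09e-05). In both genes all PQ 4w libraries were above all PQ 1w libraries. Cfap74, which in Chlamydomonas belongs to the same central apparatus projection as Cfap46 and Cfap221, had 30.7, 18.9 and 17.9 CPM in PQ 4w, against 6.57, 7.29 and 8.92 CPM in PQ 1w (log2 effect 1.49 ± 0.19, adjusted p = 5.3e-05); its span overlaps that of Gabrd. Cfap100 had a log2 effect of 2.11 ± 0.30 (adjusted p = 0.000103).

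A few Cfap genes moved little. Cfap20, a protein of the inner junction of doublets and of centrioles, had 45.8, 43.7 and 36.5 CPM in PQ 4w, against 33.6, 31.5 and 28.0 CPM in PQ 1w. Its log2 effect of 0.37 ± 0.11 passed (adjusted p = 0.012), but not without PQ 1w replicate 3 (0.29, adjusted p = 0.0576). Cfap97 had a log2 effect of 0.21 (adjusted p = 0.0183). Cfap36 had 34.4, 34.8 and 26 CPM in PQ 4w and 31.1, 33.9 and 30.7 CPM in PQ 1w (log2 effect -0.08 ± 0.14, adjusted p = 0.657). Cfap61 did not pass although its log2 effect was larger, at 1.44 ± 0.59 (adjusted p = 0.054), with 0.056 to 3.30 CPM over the 12 libraries. DESeq2, limma and scaling by the library total alone called it higher, as did the fits without PQ 1w replicate 2 or without PQ 4w replicate 3.

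**Figure D2:**
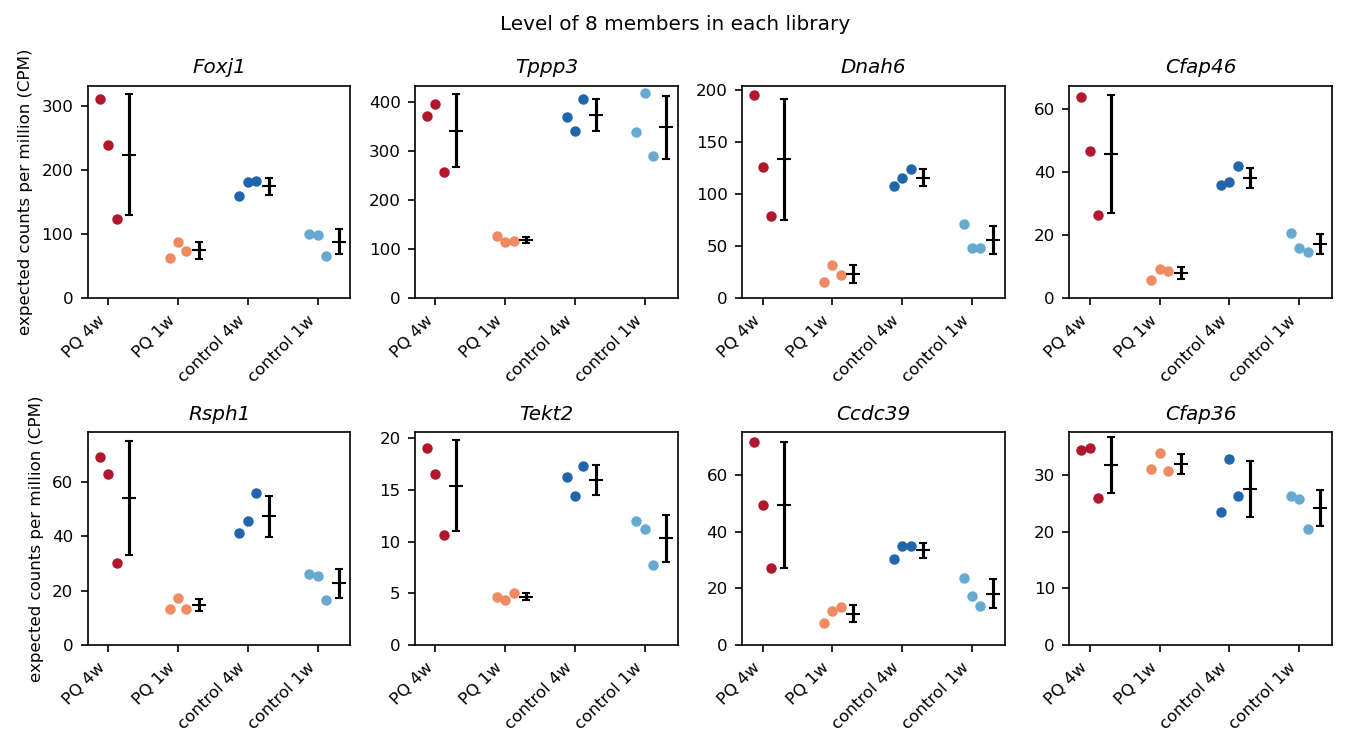
CPM of 8 motile cilium genes in each library (points) with the mean and SD of each group (black bars, n = 3); each axis starts at 0. In 7 of the panels every PQ 4w point lies above every PQ 1w point, and in Cfap36 these groups overlap. In Tppp3 and Cfap36 the control 4w and control 1w points overlap too.

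The radial spoke genes Rsph1, Rsph4a, Rsph9, Rsph14 and Rsph3b were higher in PQ 4w than in PQ 1w. Rsph1 had 69.2, 63.0 and 30.0 CPM in PQ 4w, against 13.3, 17.1 and 13.4 CPM in PQ 1w (log2 effect 1.82 ± 0.28, adjusted p = 0.000183), with no overlap. Rsph4a, another spoke head protein, had a log2 effect of 2.17 (adjusted p = 0.000181). Rsph3a and Rsph3b are near-identical copies whose reads may have been split: their log2 effects were 0.32 (adjusted p = 0.108) and 0.63 (adjusted p = 0.00346). The spans of Rsph1, Rsph9 and Rsph14 overlap those of Ubash3a, Mrps18a and Gnaz.

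Of the tektins, Tekt1, Tekt2 and Tekt4 were higher in PQ 4w than in PQ 1w, and Tekt3 and Tekt5 did not pass. Tekt1 had 43.0, 33.5 and 16.4 CPM in PQ 4w, against 7.00, 10.4 and 8.72 CPM in PQ 1w (log2 effect 1.76 ± 0.32, adjusted p = 0.000672). Tekt2 had 19.1, 16.6 and 10.6 CPM in PQ 4w, against 4.63, 4.32 and 5.01 CPM in PQ 1w (log2 effect 1.66 ± 0.22, adjusted p = 6.12e-05). Neither gene's groups overlapped. Tekt5, a tektin of sperm flagella, had 1.10, 3.61 and 3.66 CPM in PQ 4w and 2.8, 3.94 and 4.14 CPM in PQ 1w, with overlap (log2 effect -0.44, adjusted p = 0.3).

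Of the other 5 genes, Foxj1 had 311, 239 and 124 CPM in PQ 4w, against 62.7, 88.4 and 73.4 CPM in PQ 1w, a 2.86-fold higher level with no overlap (log2 effect 1.52 ± 0.27, adjusted p = 0.000525). Ccdc39 and Ccdc40, which together act as the ruler that spaces dynein arms and radial spokes along the doublet, had log2 effects of 2.10 ± 0.31 (adjusted p = 0.000152) and 1.71 ± 0.27 (adjusted p = 0.00022). Ccdc39 had 71.8, 49.4 and 27.0 CPM in PQ 4w, against 7.71, 11.8 and 13.5 CPM in PQ 1w. Tppp3 had 372, 396 and 257 CPM in PQ 4w, against 126, 114 and 116 CPM in PQ 1w (log2 effect 1.46 ± 0.17, adjusted p = 2.12e-05). Neither overlapped. Mcidas was the gene of these 5 that did not pass, at 2.59, 2.36 and 1.01 CPM in PQ 4w and 0.853, 1.49 and 1.54 CPM in PQ 1w (log2 effect 0.55 ± 0.38, adjusted p = 0.241). Without PQ 4w replicate 3 it passed, at 0.84 (adjusted p = 0.0473). The spans of Ccdc39 and Ccdc40 overlap those of Ttc14 and Tbc1d16.

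The saline lungs also differed between the times. In control 4w 24 of 51 genes were higher than in control 1w, where 10.1% of all tested genes passed, 5.9% higher and 4.2% lower, and no motile cilium gene was lower by edgeR, DESeq2 or limma, nor at an unadjusted p under 0.05. The log2 effect was above 0 for 48 of 51, with a median of 0.99. For 43 genes all control 4w libraries were above all control 1w libraries and for none below, against 19.8% and 14.2% of all tested genes. The count of 24 depended on each of the 6 libraries. It was 8 without control 1w replicate 1, 13 without replicate 2 and 0 without replicate 3, and 9 without control 4w replicate 1 and 0 without replicate 2 or without replicate 3. In those fits the share of all tested genes that were higher was 0.199 to 3.81%, and the median effect of the motile cilium genes was 0.85 to 1.14.

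Rsph14 had the largest effect in saline lungs, at 4.51, 5.76 and 5.83 CPM in control 4w, against 1.90, 1.27 and 0.877 CPM in control 1w (log2 effect 1.98 ± 0.36, adjusted p = 0.0188). Cfap100 had 23.5, 26.5 and 30.6 CPM in control 4w, against 11.8, 11 and 7.34 CPM in control 1w (log2 effect 1.41 ± 0.29, adjusted p = 0.0218). Foxj1 had 160, 182 and 184 CPM in control 4w, against 101, 99.5 and 65.7 CPM in control 1w (log2 effect 0.97 ± 0.27, adjusted p = 0.0418). In these 3 genes the control 4w libraries were all above the control 1w libraries. Tppp3 was an exception, with 370, 341 and 406 CPM in control 4w and 338, 417 and 289 CPM in control 1w, which overlap (log2 effect 0.09 ± 0.16, adjusted p = 0.759). The calls for Foxj1 and Ccdc40 were lost without any 1 of the 6 libraries (adjusted p 0.0555 to 0.152), and those for Rsph14 and Cfap100 did not hold without control 1w replicate 3, control 4w replicate 2 or control 4w replicate 3 (adjusted p 0.0518 to 0.0847).

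**Figure D3:**
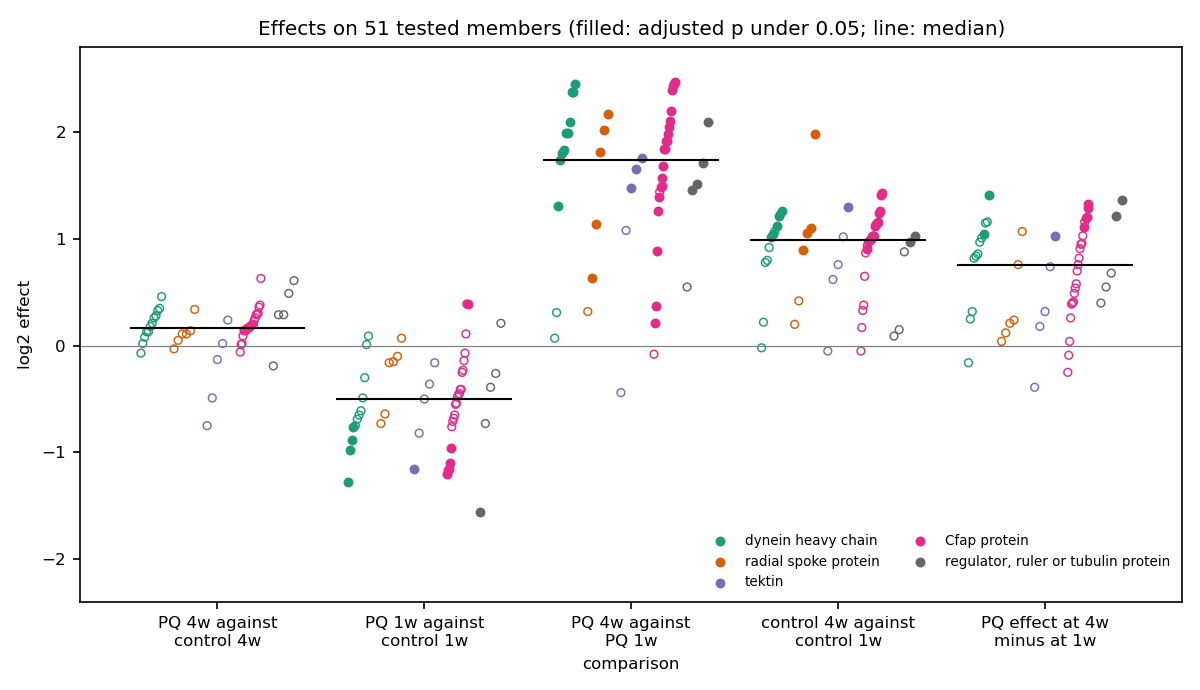
Log2 effects of the 51 tested motile cilium genes (points, coloured by class) in the 5 comparisons, with filled points for adjusted p under 0.05 and a line at the median. The medians are 0.17, -0.50, 1.74, 0.99 and 0.76 in the order drawn, and the PQ 4w against PQ 1w column holds 43 filled points.

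The difference between the PQ effects at the times was tested directly as the interaction term, PQ effect at 4w minus PQ effect at 1w. It passed for 10 of 51 genes, each time with the higher effect at 4w, where 32.0% of all tested genes passed, 14.1% in that direction and 17.9% in the other; 10 of 51 is close to that background. The 10 were Ccdc39, Cfap46, Cfap53, Cfap57, Cfap161, Cfap221, Dnah6, Dnah11, Tekt2 and Tppp3. The median interaction was 0.76, against -0.01 over all tested genes. Tppp3 had the clearest value, 1.37 ± 0.23 (adjusted p = 0.00106), with a PQ effect of -0.19 at 4w and -1.56 at 1w. Tppp3 and Tekt2 passed without each library in turn, and the other 8 lost the call without at least 1 library. The count was 33 without PQ 4w replicate 3, 3 without PQ 4w replicate 1 or control 1w replicate 1, 4 without PQ 1w replicate 1 or replicate 3, 5 without control 4w replicate 1 or replicate 2, and 6 without PQ 4w replicate 2. Read against all tested genes with a higher effect at 4w, that is 64.7% against 14.6% without PQ 4w replicate 3, and 5.88% against 12.1% without PQ 4w replicate 1. In the other fits listed here it was 5.88 to 11.8% against 11.3 to 14.2%.

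Genes of the same organelle that the symbol rule did not take were counted from lists of 51 genes (49 tested) for dynein arm subunits, docking and assembly, the nexin-dynein regulatory complex, the central apparatus, inner doublet and tip proteins, and ciliated cell transcription factors and centriole amplification. In PQ 1w 12 of the 49 fell and 1 rose against control 1w, where 22.9% and 25.9% of all tested genes did, so the number that fell is near the background. In PQ 4w 1 (Gmnc) fell against control 4w, where 6.39% of all tested genes did. Between the times 45 were higher in PQ 4w than in PQ 1w and 26 in control 4w than in control 1w, where 26.7% and 5.9% of all tested genes were higher. Their median log2 effects were -0.46, 0.19, 1.74 and 0.90 in these 4 comparisons, beside -0.50, 0.17, 1.74 and 0.99 for the motile cilium genes above. Sntn, a protein of the tip of motile cilia, had 29.0, 23.8 and 11 CPM in PQ 4w, against 3.13, 5.29 and 4.80 CPM in PQ 1w (log2 effect 2.20 ± 0.31, adjusted p = 9.25e-05). Hydin, a central apparatus protein, had log2 effects of 2.30 ± 0.30 there (adjusted p = 6.43e-05) and of -1.05 ± 0.31 in PQ 1w against control 1w (adjusted p = 0.0133).

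Gmnc departed from this pattern at 4w, and Nme7 at 1w. Of the 8 genes for ciliated cell transcription and centriole amplification, Gmnc and Myb fell in PQ 1w against control 1w. Over all tested genes 22.9% fell there. Both genes were higher in PQ 4w than in PQ 1w. Gmnc, which acts upstream of Mcidas in multiciliated cells, had 0.647, 0.594 and 0.763 CPM in PQ 1w, against 5.04, 2.93 and 3.78 CPM in control 1w, and fell by 2.55 ± 0.32 on the log2 scale (adjusted p = 4.09e-05). At 4w it had 3.60, 3.78 and 1.83 CPM in PQ 4w, against 7.49, 6.05 and 6.45 CPM in control 4w, and fell by 1.19 ± 0.26 (adjusted p = 0.0128). Its groups did not overlap at either time. Nme7, a protein inside the doublets that is also found at centrosomes, had 15.8, 16.3 and 15.4 CPM in PQ 1w, against 9.85, 9.55 and 7.98 CPM in control 1w, and rose by 0.78 ± 0.11 (adjusted p = 0.000134).

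Genes shared by motile and primary cilia had smaller median effects. Of 26 intraflagellar transport and primary cilium genes, 4 rose and 4 fell in PQ 1w against control 1w. Over all tested genes 25.9% rose and 22.9% fell there. In PQ 4w 15 were higher than in PQ 1w, against 26.7% of all tested genes. In control 4w 3 were higher than in control 1w, against 5.9%. These 26 genes had median log2 effects of 0.05, 0.41 and 0.37 in these comparisons, in that order. Their summed level was 979, 856 and 683 CPM in PQ 4w, 604, 627 and 602 in PQ 1w, 701, 755 and 756 in control 4w, and 615, 607 and 569 in control 1w. PQ 1w and control 1w overlapped here, unlike for the motile cilium genes. No test compared the lists.

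The summed level of club and mucous cell genes, other markers of the airway lining, differed between the groups in the same order as that of the motile cilium genes at 1w and between the times. The 15 club and mucous cell genes summed to 47449, 58386 and 28275 CPM in PQ 4w, 6383 to 7416 in PQ 1w, 54090 to 62638 in control 4w, and 25944 to 35263 in control 1w. By this sum PQ 1w was below every other library, PQ 4w replicate 3 was the lowest of its group, and control 4w was above control 1w, but Scgb1a1 makes most of it. The mean over the genes of log2 (CPM + 0.5), relative to the controls, was -1.46, -0.15 and -0.75 in the PQ 1w libraries, against 0.20, -1.38 and -1.15 in those of control 1w, which overlap, and the effect at 1w was above 0 for 7 of the 15 genes. In PQ 1w against control 1w 7 of these genes fell and 1 (Retnla) rose, and 10 were higher in PQ 4w than in PQ 1w. As background for this list and those below, 25.9% of all tested genes rose and 22.9% fell at 1w. Between PQ 4w and PQ 1w, 26.7% of all tested genes were higher and 27.8% lower in PQ 4w. Scgb1a1 had 32903, 41899 and 20819 CPM in PQ 4w, against 4790, 3490 and 3616 CPM in PQ 1w. The 10 basal airway cell genes went the other way at 1w and between the times. In PQ 1w 4 of them (Krt14, Krt17, Pdpn and Trp63) rose against control 1w, with an effect above 0 for 9 of the 10. In PQ 4w 2 were higher and 4 lower than in PQ 1w. Against control 4w, 3 (Aqp3, Krt14 and Trp63) rose in PQ 4w, where 5.75% of all tested genes did. The effect there was above 0 for 7 of the 10 and below 0 for 3, with a median log2 effect of 1.23. The 10 genes summed to 111 to 150 CPM in PQ 4w, 279 to 291 in PQ 1w, 129 to 153 in control 4w and 176 to 186 in control 1w. Most of that sum is Pdpn, which alveolar type 1 cells also express. Alveolar genes changed too. Of 12 alveolar type 2 genes 9 fell in PQ 1w against control 1w, with a median log2 effect of -0.50. In PQ 4w 8 were higher and 1 lower than in PQ 1w. For 8 the interaction passed, all with the higher effect at 4w, where 14.1% of all tested genes passed in that direction. In control 4w 6 of these 12 were lower than in control 1w, against 4.2% of all tested genes, and the effect was below 0 for all 12. Of 10 alveolar type 1 genes 4 fell in PQ 1w against control 1w, and 1 was higher and 4 lower in PQ 4w than in PQ 1w. How much the airway content of each lung piece adds to the motile cilium results was not tested. Genes of tracheal cartilage and the large airway wall summed to 0.932 to 4.59 CPM in all 12 libraries. Germ line genes, which could accompany sperm flagellar genes, summed to 0.892 to 4.28 CPM, nearly all from Sycp3.

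**Figure D4:**
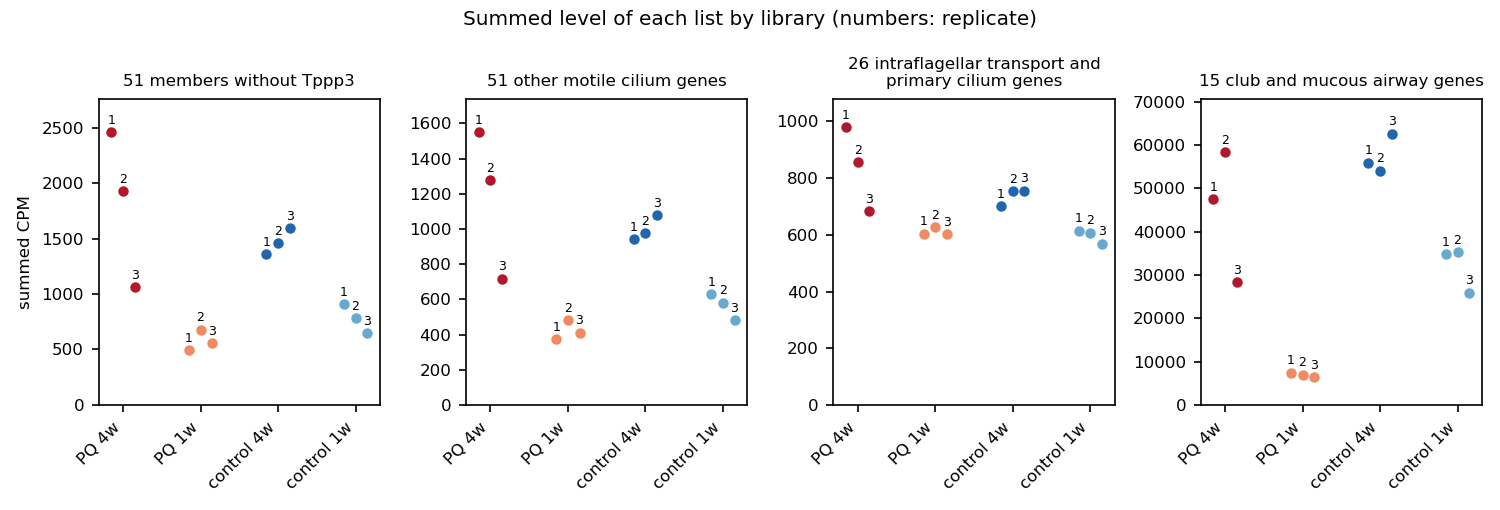
Summed CPM of 4 gene lists in each library (points, with replicate numbers), each axis starting at 0. The motile cilium genes, the other motile cilium genes and the club and mucous genes are lowest in PQ 1w and higher in control 4w than in control 1w, while the intraflagellar transport and primary cilium genes differ less; PQ 4w replicate 3 is the lowest PQ 4w point in each panel.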

How the data were processed

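RNA was extracted from homogenized lung, checked for integrity and read on a BGISEQ 500 machine, per the labels' protocols. HISAT, RSEM 1.2.12 and the mouse build mm10 are named in the submitters' processing notes; the version of HISAT, the annotation and whether strand was used in counting were not given in the sources used here. The tables hold expected counts per gene that the authors deposited without scaling, per the file headers. They also hold FPKM that the authors scaled to transcript length and library size, per the file headers, used here only to compare levels between genes and in 1 alternative. The combined FPKM table repeats the single tables and was not used. A gene missing from a library's table was taken as 0 there.

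Groups, replicates and times came from the labels. Rounded expected counts were fitted with edgeR (quasi-likelihood F-test), with a mean for each of the 4 groups in 1 fit of all 12 libraries, TMM scaling (factors 0.9735 to 1.057) and filterByExpr (minimum count 10, minimum total count 15), with Benjamini-Hochberg adjustment over 15921 genes at 0.05. The contrasts were PQ against control at each time, 4w against 1w within PQ and within control, and the interaction. Standard errors are approximate and were taken as the size of the log2 effect over the root of F. The expected counts are estimates and are not independent molecules, so depth bounds only counting error. Spans and chromosomes of all 52 genes came from the RefSeq gene table of GRCm38, and promoter windows from RefSeq, matched for 44 genes.

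Genes were named by a rule: Foxj1, Mcidas, Ccdc39, Ccdc40 and Tppp3, the 4 smallest adjusted p-values in each direction of each contrast among those that passed, and the highest mean FPKM of each class. Other genes named with values were chosen after their values were seen. The genes and the other lists were chosen with earlier results of these data known. Of 140 listed symbols 138 matched the tables. The fitting code was run on simulated data whose spread was set in advance and not estimated from these libraries. That run checks the code only. Alternatives were DESeq2 size factors and its Wald test, scaling by the library total alone, no filter and a stricter one (1 CPM in 3 libraries), limma on log2(FPKM + 0.1), only the groups compared, a replicate block, and each library left out in turn. Genes that match the symbol rule only by their RefSeq symbol were added as an alternative chosen after seeing the data. Versions were R 4.3.3 with DESeq2 1.42.0, limma 3.58.1 and edgeR 4.0.16, as well as Python 3.11.15 with matplotlib 3.10.9, numpy 2.4.6 and pandas 2.3.3.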

Additional observations from a re-analysis of the deposited data

Results flagged for a closer look

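The PQ effect differed between 4w and 1w for 10 of 51 motile cilium genes by the interaction term of the edgeR fit (n = 3 libraries a group, Benjamini-Hochberg adjusted p from 0.00106 to 0.0469). These are given as values with no explanation. All 10 had the higher effect at 4w (19.6%), as did 14.1% of all tested genes, so the count is close to that background. Only Tppp3 and Tekt2 kept the call without each library in turn. In log2 units, 4w minus 1w, the difference was 1.41 for Dnah6, 1.37 for Tppp3, 1.33 for Cfap57, 1.29 for Cfap46, 1.22 for Ccdc39, 1.21 for Cfap221, 1.2 for Cfap161, 1.11 for Cfap53, 1.05 for Dnah11 and 1.03 for Tekt2. In each case the effect was below 0 at 1w. At 4w it was above 0 for 8 of the 10, and -0.19 for Tppp3 and -0.13 for Tekt2. The spans of Ccdc39, Cfap57 and Dnah11 overlap those of Ttc14, Ebna1bp2 and Cdca7l, and the strand of the counting is not given. Reads from any stretch a pair shares therefore cannot be told apart, and whether exons overlap was not examined.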

How the results depend on the processing

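No call of a named gene changed sign under any alternative: of 1500 values, 1364 kept their side of the threshold, 106 lost and 30 gained a call. Counts that moved by over 1.5 times follow. In PQ 1w against control 1w, 11 genes fell, and 18 by DESeq2's Wald test and 26 with only the groups compared. Of all tested genes 22.9%, 23.5% and 25.3% fell in these fits. In PQ 4w against control 4w, none rose, and 1 did with the library total alone, where 5.75% and 8.6% of all tested genes did. In control 4w against control 1w, 24 were higher, and 37 by DESeq2's Wald test and 40 with only the groups compared. Of all tested genes 5.9%, 7.14% and 8.81% were higher in these fits. With genes that match by RefSeq symbol added, 3 rose at 1w in place of 1. In that setting 1 was lower in PQ 4w than in PQ 1w in place of 0, and 1 interaction was lower in place of 0. Over all tested genes these 3 shares were 25.9%, 27.8% and 17.9%. The causes of these moves were not tested.

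With each library left out in turn, the range was 7 to 14 genes lower and 0 to 1 higher in PQ 1w against control 1w, 0 to 11 higher in PQ 4w against control 4w, 40 to 47 higher in PQ 4w against PQ 1w, 0 to 13 higher in control 4w against control 1w, and 3 to 33 for the interaction. Over all tested genes the ranges were 18.7 to 20.6% lower and 22.6 to 24.1% higher in PQ 1w against control 1w. For the other comparisons, in the order above, 2.18 to 6.59%, 22.4 to 25.2%, 0.199 to 3.81% and 11.3 to 14.6% were higher. Fewer libraries enter these fits.

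Equal replicate numbers are not known to pair the libraries. The correlations of their deviations from the group means were -0.349 to 0.242, and with 3 libraries a group these cannot settle it. With a replicate block, 12 genes fell and 1 rose at 1w, where 22.6% and 25.4% of all tested genes did, and none passed at 4w. In this fit 43 were higher in PQ 4w than in PQ 1w (25.9% of all tested genes). In control 4w 29 were higher than in control 1w (5.44%). For 9 the interaction passed, all with the higher effect at 4w (13.3%). Genes near 1 CPM, such as Mcidas, Tekt3 and Cfap61, are limited by depth.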
